A study of Mus musculus with 12 samples.

Results

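Immediate early genes were examined in sorted hematopoietic stem cells (HSCs) of WT and Pon2-/- mice. The 10 genes were Fos, Fosb, Jun, Junb, Jund, Egr1, Ier2, Dusp1, Nr4a1 and Zfp36, out of 49585 genes with a row in every count file. They were chosen by name, with earlier results of these data known. The libraries were made by Smart-seq2, a full-length cDNA protocol for very small cell numbers, from Lin-, Sca1+, ckit+, CD135-, CD150+ bone marrow cells, a gate that the study describes as holding long-term HSCs together with MPP2 progenitors. Each of the 12 samples was 1 mouse aged 10 to 14 weeks, with 8 wells of 10 cells whose reads were deposited as 1 file. The paper names C57BL/6J among the mice it housed, without tying that strain to the 6 WT samples. The 6 Pon2-/- mice carried a gene trap vector, β-geo between loxP sites, inserted into an intron of Pon2, an intracellular antioxidative paraoxonase. The trap is present in every cell of these mice and its strain background is not given in the sources used here. Both genotypes went through the same sort and neither was treated.

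Immediate early genes are transcribed within minutes of a stimulus without new protein synthesis, chiefly through MAP kinases acting on serum response factor and its ternary complex partners and on the cAMP response element binding protein. Fos and Jun family proteins pair through leucine zippers to form the AP-1 transcription factor, while Dusp1 and Zfp36 shut the response down by dephosphorylating MAP kinases and by destroying short-lived mRNAs. Because tissue dissociation and cell sorting can themselves switch these genes on, their level in sorted cells is often read beside cell handling. JunB and Egr1 are also known as restraints on HSC proliferation.

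The regulatory sequences are shown first, because the 10 genes form a group by their inducible promoters and short-lived mRNAs, and the level of each depends on both. Promoter sequence from RefSeq (GRCm38.p6) was read for 8 of the 10 genes, and Egr1 and Ier2 were left out. The 250 bases upstream of the start are printed for 3 AP-1 genes and the MAP kinase phosphatase gene. All of these held the cAMP response element half-site. Capitals mark TGACG, on either strand as it reads in the printed one, and TATAAA in Fos.
Fos, chr12:85473640-85473889, + strand: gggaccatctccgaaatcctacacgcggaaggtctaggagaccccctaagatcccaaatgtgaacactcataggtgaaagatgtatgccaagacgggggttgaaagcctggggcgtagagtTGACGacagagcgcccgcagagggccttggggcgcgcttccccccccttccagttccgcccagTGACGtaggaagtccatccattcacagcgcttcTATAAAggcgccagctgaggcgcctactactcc
Fosb, chr7:19310046-19310295, - strand: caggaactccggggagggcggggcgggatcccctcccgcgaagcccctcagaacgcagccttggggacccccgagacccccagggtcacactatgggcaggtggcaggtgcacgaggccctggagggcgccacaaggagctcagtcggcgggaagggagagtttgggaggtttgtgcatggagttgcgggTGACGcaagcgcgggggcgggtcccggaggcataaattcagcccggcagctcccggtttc
Junb, chr8:84978749-84978998, - strand: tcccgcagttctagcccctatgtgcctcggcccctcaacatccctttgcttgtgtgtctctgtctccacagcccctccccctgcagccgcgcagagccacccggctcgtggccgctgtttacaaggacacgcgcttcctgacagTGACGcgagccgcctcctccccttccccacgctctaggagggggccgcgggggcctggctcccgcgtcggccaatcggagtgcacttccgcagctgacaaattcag
Dusp1, chr17:26508473-26508722, - strand: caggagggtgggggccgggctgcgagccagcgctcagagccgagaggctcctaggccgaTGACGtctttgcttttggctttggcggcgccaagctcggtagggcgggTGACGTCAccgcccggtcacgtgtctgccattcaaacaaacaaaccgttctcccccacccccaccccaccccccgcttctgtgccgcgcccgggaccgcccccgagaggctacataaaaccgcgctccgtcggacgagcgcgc
The half-site TGACG, searched on both strands, was present in 5 of the 8 promoters (Fos, Fosb, Junb, Nr4a1 and Dusp1), against 17.9% of 27025 promoters of the same length. Dusp1 held the complete element TGACGTCA, which contains the half-site and was found in 1.62% of all promoters. The TATA box letters TATAAA lay 33 bases upstream of the start in Fos and in none of the other 7, against 3504 of all 27025 promoters. The AP-1 site TGANTCA was in none of the 8 windows (6.87% of all), the GC box GGGCGG in 6 (32.9% of all), and a CArG box, the core of the serum response element, in 1, that of Zfp36 (1.40% of all). These matches describe letters in a short window and say nothing of a factor's binding.

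At the other end of the mRNA, the heptamer UAUUUAU is the core of the AU-rich elements that tristetraprolin, the product of Zfp36, binds to speed mRNA decay. Written as DNA, TATTTAT occurred in the 3′ untranslated region of 6 of the 10 members, against 27.4% of 21037 protein-coding genes and 29.6% of the 10540 of them that entered the test between genotypes. The first copy of each is printed with its flanks from the GENCODE M21 transcripts (GRCm38), with the heptamer in capitals.
Fos, chr12:85477105-85477129, + strand: ttttcaattTATTTATtaagatgga
Fosb, chr7:19303328-19303352, - strand: acccccagcTATTTATccctttcct
Jun, chr4:95049081-95049105, - strand: gcttgtgcaTATTTATaatagcgtt
Jund, chr8:70700361-70700385, + strand: attccgcccTATTTATgtttctact
Dusp1, chr17:26506161-26506185, - strand: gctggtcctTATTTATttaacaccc
Zfp36, chr7:28376968-28376992, - strand: tgggcccttTATTTATgacgacttt
Dusp1 and Zfp36 itself carried 3 copies each, Fos 2, and Fosb, Jun and Jund 1 each. Junb, Egr1, Nr4a1 and Ier2 held no copy in the longest annotated transcript. Members were rich in G and C, with a median of 56.5% across their transcripts against 49.2% for protein-coding genes, and Jund (67.1%) and Junb (62.6%) stood highest among them.

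The libraries held between 12967791 and 24228280 counts on genes, and between 13941 and 15656 genes had at least 1 read. Levels are given as counts per 1000000 (CPM) after TMM scaling, in which 3 reads, the limit that a count of 0 allows, correspond to 0.121 to 0.235 CPM. Pon2, the trapped gene, lay between 56.4 and 202 CPM in the WT mice and between 1.16 and 33.1 CPM in the Pon2-/- mice without overlap (log2 fold change -2.13 ± 0.57 SE, adjusted p = 0.586 by edgeR's quasi-likelihood test with Benjamini-Hochberg adjustment, exact permutation p = 0.00216). That permutation p is the smallest that 6 against 6 mice allows. All 6 markers of the sorted population (Kit, Ly6a, Slamf1, Procr, Hlf and Mecom) were detected in all 12 libraries and summed to 1242 to 1693 CPM. Flt3, the gene of CD135, which the gate excludes, was likewise counted in all 12 libraries, at 4.59 to 65.0 CPM. Transcripts of granulocytes and monocytes, 8 genes led by S100a8 and S100a9, summed to between 1.54 and 15000 CPM, with low and high libraries in both genotypes. T lineage genes (5 genes) summed to 0.0424 to 57.7 CPM, nearly all of it Lck, which was counted in 11 libraries, while Cd3d was counted in 4, Cd3g in 1, and the defining Cd3e and Trac in 0. B lineage genes (6 genes) summed to 25.5 to 478 CPM. Their part in the members' levels was measured only as the correlations given with the co-variation. In bulk samples such as these, fewer cells with a transcript and less of it per cell cannot be told apart.

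The question addressed first was how high immediate early genes stood in these HSCs. The group was not uniformly on or off. Ier2 was the member with the highest level, Dusp1, Junb, Zfp36 and Egr1 formed a middle tier, Jun and Nr4a1 were found in a part of the libraries, and Fos, Fosb and Jund were at or near 0 in almost all of them.

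Fos, the founding AP-1 subunit, had 106 reads in WT replicate 5 (7.69 CPM) and 0 reads in the other 5 WT and all 6 Pon2-/- libraries. Fosb, its close relative, had 40 reads in WT replicate 6 (2.46 CPM), 3 reads in Pon2-/- replicate 5 (0.139 CPM) and 0 in the other 10. Jund, the Jun family member that most cells transcribe without a stimulus, had 2 reads in Pon2-/- replicate 5 and 0 elsewhere. For 3 members, then, nearly all libraries had 0 reads, which does not separate absence from a level below the limit of 0.121 to 0.235 CPM. Jund is a gene of a single exon, 1668 bases, of which 877 are shared with Gm11175, an antisense transcript that had 0 counts in all libraries. Reads falling on both genes are not assigned by the authors' unstranded counting, and the part of this in the 0 counts was not tested.

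Jun, which encodes the AP-1 subunit c-Jun, was counted in 8 of 12 libraries, and Nr4a1, the orphan nuclear receptor Nur77, in 6. In WT libraries Jun lay between 0 and 9.39 CPM with a median of 1.76, and in Pon2-/- libraries between 0 and 19.4 CPM with a median of 1.62. For Nr4a1 the WT libraries ran from 0 to 20.8 CPM (median 0.948) and the Pon2-/- libraries from 0 to 40.4 CPM (median 0). Each genotype thus held libraries with over 100 reads and libraries with none. WT replicate 4 had 120 reads of Jun and 266 of Nr4a1 and Pon2-/- replicate 3 had 341 and 710, while WT replicate 2 and Pon2-/- replicates 1 and 4 had 0 of both. Junos, an antisense RNA that shares 232 exonic bases with Jun, had 21 reads in Pon2-/- replicate 3, 127 in Pon2-/- replicate 6 and 0 elsewhere. Only reads on the shared bases, which were assigned to neither, cannot be told apart without strand.

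Among the middle tier, Junb, an AP-1 subunit that counteracts c-Jun, was counted in all libraries, at 12.5 to 55.9 CPM in WT (median 22.2) and 1.19 to 61.3 CPM in Pon2-/- mice (median 21.8). The Pon2-/- values split widely, with replicates 3 and 5 at 1.19 and 1.99 CPM and the other 4 at 19.5 CPM or more. Prdx2, which overlaps Junb by 173 exonic bases on the other strand, had 110655 reads in all and was itself counted in every library. Egr1, a zinc finger transcription factor induced by mitogens, lay between 9.21 and 79.4 CPM in WT (median 42.8) and between 0 and 57.8 CPM in Pon2-/- mice (median 32.6). A single library, Pon2-/- replicate 2, had no Egr1 read, although it had 23122382 counts in total and 1421 reads of Junb and 1488 of Dusp1.

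Dusp1, the phosphatase MKP-1 that inactivates MAP kinases, stood at 0.594 to 76.8 CPM in WT (median 54.7) and at 14.9 to 64.2 CPM in Pon2-/- mice (median 39.6). WT replicate 1 had only 14 reads of it, while the other 5 WT libraries held 49.0 to 76.8 CPM, and the same library had the highest Egr1 of all 12. Zfp36, the mRNA decay factor tristetraprolin, ranged from 13.03 to 67.1 CPM in WT (median 24.8) and from 9.67 to 55.5 CPM in Pon2-/- mice (median 20.7). Its antisense neighbour Gm44710, sharing 125 exonic bases, reached at most 42 reads in a library.

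Ier2, a small nuclear protein of uncertain function and a classic growth factor response gene, was the most even of the 10. It lay between 82.1 and 156 CPM in WT (median 98.6) and between 114 and 175 CPM in Pon2-/- mice (median 125). No library was near 0, and 4 of the 6 WT libraries were below every Pon2-/- library.

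**Figure D1:**
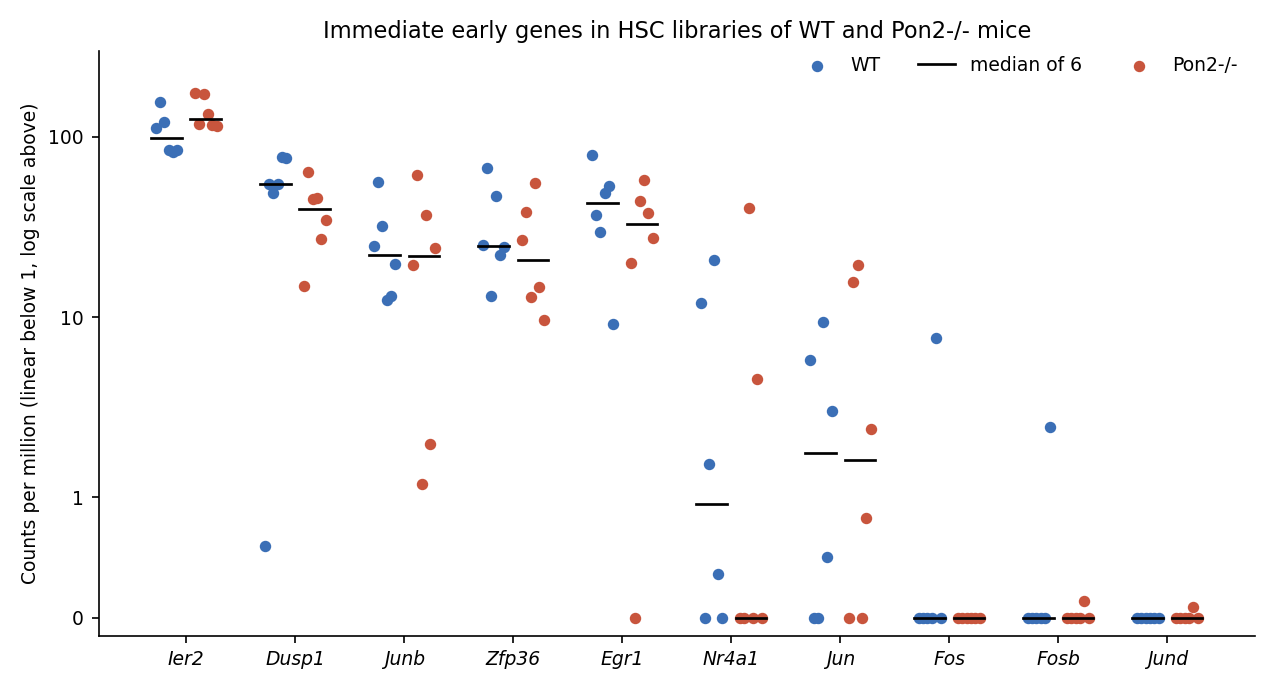
Level of each member in CPM (linear below 1 and log scale above) in the 6 WT (blue) and 6 Pon2-/- (red) libraries, 1 point per mouse, with the median of each genotype as a black line and genes ordered by level per kilobase. Ier2 stayed within 82.1 to 175 CPM, Jun and Nr4a1 fell on both sides of 1 CPM in each genotype, and Fos rose from 0 in a single WT library.

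Since longer transcripts collect more reads, the order of the members was read per kilobase of exon. The length joined all annotated exons of a gene, 3311 bases for Dusp1 and 2301 for Junb. Their longest coding transcripts measured 1990 and 1809 bases, and the order with transcript lengths was not tested. Ier2 averaged 80.5 ± 20.98 CPM per kilobase (SD, n = 12), followed by Dusp1 (13.7 ± 6.96), Junb (10.97 ± 8.20), Zfp36 (8.57 ± 5.32) and Egr1 (8.26 ± 4.88). Nr4a1 (1.89 ± 3.54), Jun (1.49 ± 2.09), Fos (0.273 ± 0.944), Fosb (0.0346 ± 0.113) and Jund (0.00462 ± 0.016) followed. Ier2 exceeded Dusp1 in 12 of 12 libraries (exact sign-flip permutation test within libraries, adjusted p = 0.0044 over 9 neighbouring pairs) and Egr1 exceeded Nr4a1 in 10 (adjusted p = 0.00879). The other 7 neighbours did not differ beyond their spread in the exact permutation test (adjusted p between 0.375 and 1.0). Dusp1 was above Junb in 6 libraries and below it in 6, and Zfp36 stood to Egr1 in the same way.

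**Figure D2:**
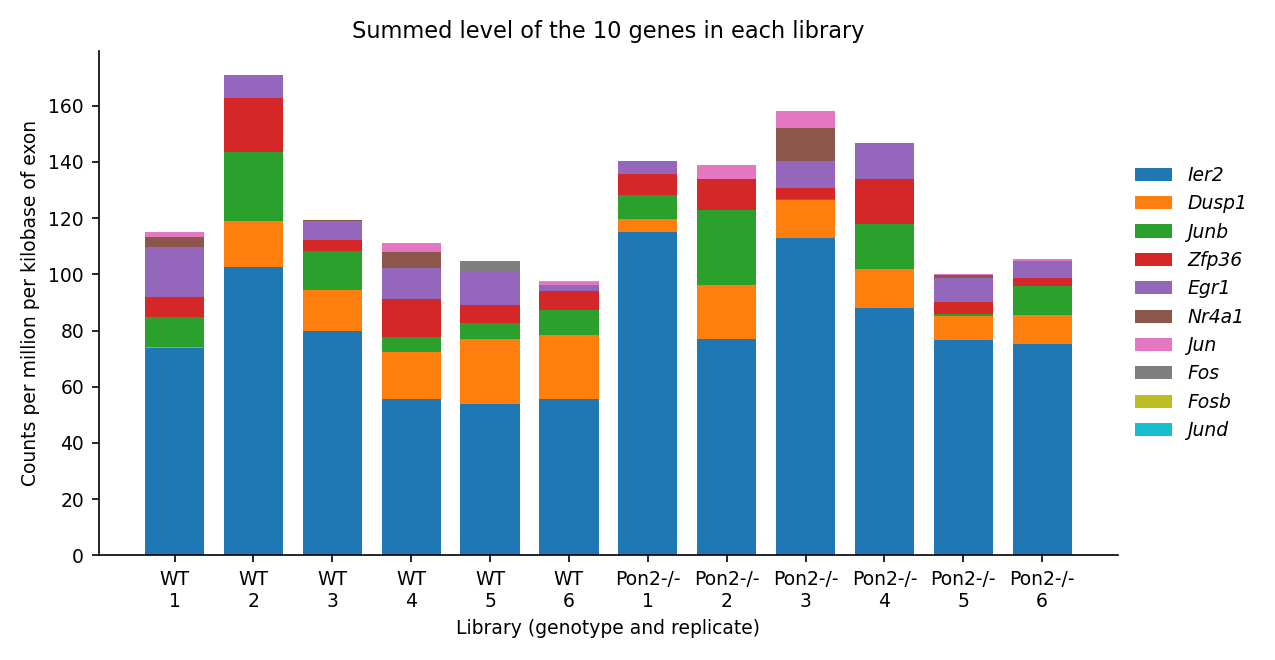
Summed level of the 10 genes in each library, in CPM per kilobase of exon, stacked by gene from Ier2 at the base. The sums ran from 97.6 in WT replicate 6 to 171 in WT replicate 2, and Ier2 made up 50.1% to 82.1% of them (median 62.2%), whereas the gene that filled the rest changed from library to library.

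The plot of the summed levels shows that libraries with similar sums were built differently. In WT replicate 5, the library with Fos, Dusp1 was at its highest of the 12 libraries and Egr1 was in place 3, while Ier2 was at its lowest and Jun and Zfp36 were each in place 8. Pon2-/- replicate 5 had reads of 9 of the 10 members, the most of any library, yet the lowest summed CPM (204 CPM). Between 5 and 9 members were counted per library, with a median of 7.0 in WT and 5.5 in Pon2-/- mice.

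Spread between mice of the same genotype was next set against that of all genes. Of the 10 members, 6 (Jun, Junb, Egr1, Ier2, Dusp1 and Zfp36) passed the filter on low counts that left 11848 genes for testing, and Fos, Fosb, Jund and Nr4a1 did not. For Ier2 the SD of log2 CPM within genotypes was 0.33, and 7.64% of the genes tested had a smaller one. Zfp36 (SD 0.91) stood near the median of all genes tested, which was 0.99. Junb (1.72), Dusp1 (1.94), Egr1 (2.55) and Jun (3.09) were more variable than 65.5%, 68.4%, 79.9% and 90.5% of the genes tested. Expressed as edgeR's biological coefficient of variation, which leaves out counting error, the spread was 28.9% for Ier2, 69.9% for Zfp36, 81.5% for Dusp1, 95.5% for Junb, 106% for Egr1 and 211% for Jun, against a median of 73.1%. Ier2 was below the trend for genes of its abundance (40.5%), as were Junb (trend 99.0%) and Zfp36 (trend 90.1%). Above their trends were Egr1 (77.9%), Dusp1 (68.6%) and Jun (170%).

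**Figure D3:**
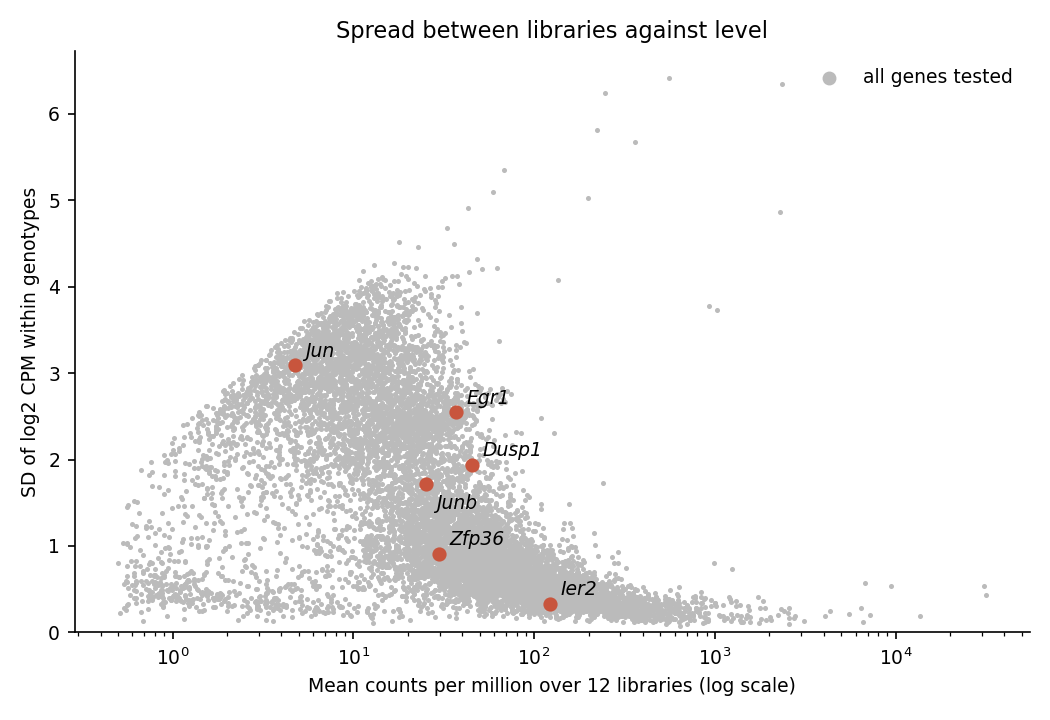
SD of log2 CPM within genotypes against mean CPM over the 12 libraries (log scale) for the 11848 genes tested (grey), with the 6 members tested in red. Ier2 lies at 122.6 CPM with an SD of 0.33, and Egr1 at 37.0 CPM with an SD of 2.55.

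Single libraries carried part of this spread. Without WT replicate 1, the WT mean of Dusp1 rose from 51.9 ± 27.7 (SD, n = 6) to 62.2 ± 13.1 CPM (SD, n = 5). Without Pon2-/- replicate 2, the Pon2-/- mean of Egr1 moved from 31.2 ± 20.2 (SD, n = 6) to 37.4 ± 14.7 CPM (SD, n = 5). For Junb, by contrast, leaving out either low Pon2-/- library left an SD of about its former size (22.1 and 22.3 CPM against 22.7 CPM).

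The next comparison asked whether members rose and fell together between mice. No pair did so to a degree that the test could resolve. Whether the members shared a stimulus was not tested. Over the 45 pairs of members, Pearson's r of log2 CPM across the 12 libraries had a median of -0.09 and ran from -0.68 to 0.53, and 13 pairs were above 0. One pair, or 2.22%, exceeded an r of 0.5, against 5.89% of all pairs of genes tested, whose median r was -0.01. The 45 pairs include members that are mostly at 0. No pair passed Benjamini-Hochberg adjustment over the 45 (permutation test with 100000 resamples, lowest adjusted p = 0.58) and 1 had an unadjusted p below 0.05. Among the 15 pairs of the 6 tested members, the set that matches this background, the median r was -0.15 and 1 pair (6.67%) exceeded 0.5.

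The lowest r belonged to Junb and Nr4a1 (r = -0.68, permutation p = 0.0129, adjusted p = 0.58). Spearman's rho for this pair was -0.64 (permutation p = 0.0298, adjusted p = 0.946). It was -0.42 within the WT and -0.96 within the Pon2-/- libraries, and without the 2 libraries farthest from the median of Junb (Pon2-/- replicates 3 and 5) r was -0.45 (permutation p = 0.184). The highest r was that of Junb and Zfp36 (r = 0.53, permutation p = 0.0801, adjusted p = 0.841), with a rho of 0.48 (permutation p = 0.116, adjusted p = 0.946), 0.22 within WT, 0.62 within Pon2-/- mice and 0.31 without the same 2 libraries (permutation p = 0.373). Jun and Nr4a1 followed with r = 0.49 (permutation p = 0.106, adjusted p = 0.841) and rho = 0.48 (permutation p = 0.116, adjusted p = 0.946), at 0.57 within WT, 0.47 within Pon2-/- mice and 0.52 without the 2 libraries farthest from the median of Jun (WT replicates 2 and 3, permutation p = 0.121). Without Pon2-/- replicate 3, which held the highest level of both genes, r was 0.35 (n = 11). Inside the WT group Junb and Ier2 had r = 0.96 (exact permutation p = 0.00417, adjusted p = 0.15 over the 36 pairs that varied), whereas it was -0.33 within the Pon2-/- group and -0.10 over all 12 libraries. The difference between the genotypes in this r was not tested.

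**Figure D4:**
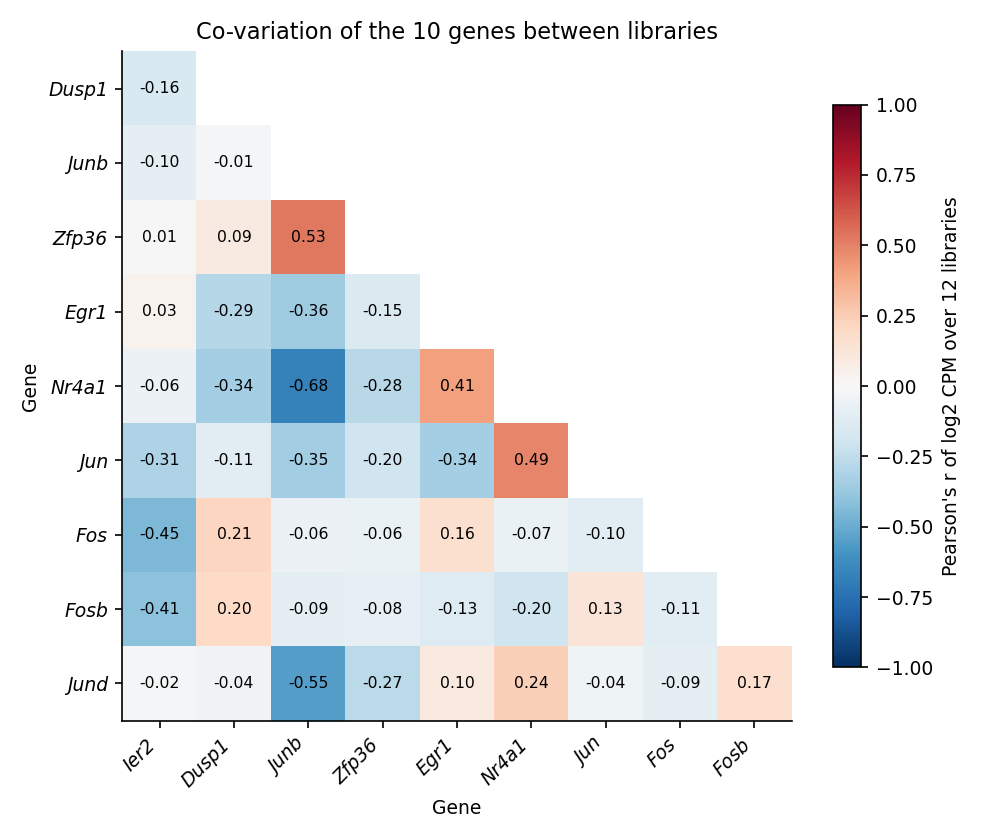
Pearson's r of log2 CPM over the 12 libraries for each of the 45 pairs of members (red positive, blue negative, value printed in each cell). The strongest cells are Junb with Nr4a1 at -0.68 and Junb with Zfp36 at 0.53, and 13 of the 45 cells are positive.

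Relations between the tested members and properties of the libraries did not pass the test. Each of the 6 was correlated with 5 measures, namely total count, genes with a count, the mitochondrial share, the granulocytic and monocytic sum and the B lineage sum. Of these 30 relations none had an unadjusted permutation p below 0.05, and r lay between -0.45 (Jun with the B lineage sum) and 0.45 (Ier2 with the granulocytic and monocytic sum), with a lowest adjusted p of 0.856 for r and 0.793 for rho. Mitochondrial genes took 4.89% to 9.55% of the counts.

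The genes most like the members were sought among 9454 other tested genes with a mean of at least 10 CPM. The mean of the centred log2 CPM of the 6 tested members was followed most closely by Gm26782 (r = 0.87), Gapvd1 (0.85), Focad (0.83), Unk (0.82) and Diaph2 (0.81) over the 12 libraries, and 7 genes exceeded 0.8. How many of 9454 unrelated genes would exceed 0.8 over 12 libraries was not tested. The mean was not scaled by spread, so Jun and Egr1, the most variable members, weighed most in it. For Fos the closest were Gng5 (0.86), Dnajc19 (0.78) and Wdr83os (0.75). Since Fos was counted in 1 library, this order only ranks genes by how far WT replicate 5 stood above the rest, and the 3 genes were highest there by construction, at 174, 254 and 128 CPM against next-highest values of 128, 168 and 90.0 CPM.

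Between genotypes, the question was whether loss of Pon2 altered immediate early transcription. No member was called higher or lower in Pon2-/- HSCs. The test did not call Pon2 itself either (log2 fold change -2.13, edgeR adjusted p = 0.586). An absent call therefore does not show an unchanged level. With a false discovery rate below 0.05 and a fold change above 2, edgeR's quasi-likelihood test called 24 of 11848 genes (0.203%) and 0 of the 6 members tested. An unadjusted p below 0.05 in this test was reached by 0 of these members, against 371 of the 11848 genes. DESeq2 likewise called 0 members, where its background was 304 of 17220 genes (1.77%). The genotypes overlapped for all 10 members, against 0.633% of the genes tested whose genotypes did not.

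Ier2 came nearest to a difference, at 107 ± 29.3 CPM in WT and 138 ± 28.3 CPM in Pon2-/- mice (SD, n = 6 each). That is a log2 fold change of 0.37 ± 0.21 (SE) with a 95% range of -0.04 to 0.78 (edgeR p = 0.0981, adjusted p = 1.0; exact permutation p = 0.0606). Without WT replicate 2 it was 0.51 with an edgeR p of 0.0245 and an adjusted p of 1.0. Dusp1 averaged 51.9 ± 27.7 CPM in WT and 38.6 ± 17.1 CPM in Pon2-/- mice (SD, n = 6 each). The log2 fold change of Dusp1 was -0.43 ± 0.70 (SE), and -0.69 ± 0.37 without WT replicate 1 (edgeR adjusted p = 1.0, exact permutation p = 0.039 against 0.985 with that library). Its direction was positive with limma voom (0.28) and with replicate number as a block (0.01).

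Egr1 was at 42.9 ± 23.7 CPM in WT and 31.2 ± 20.2 CPM in Pon2-/- mice, a log2 fold change of -0.46 ± 0.93 (SE) that was -0.20 without Pon2-/- replicate 2. For Zfp36 the log2 fold change was -0.33 ± 0.57 and without WT replicate 2 it was near 0 (-0.002). Junb had -0.12 ± 0.82, and its sign turned without Pon2-/- replicate 3 (0.12), Pon2-/- replicate 5 (0.12) or WT replicate 2 (0.24). Jun had 1.04 ± 1.77 with a 95% range of -2.43 to 4.50, the widest of the 6. Single libraries moved this value, to 0.29 without Pon2-/- replicate 3, 0.55 without Pon2-/- replicate 2 and 1.78 without WT replicate 4, and it was 0.41 with limma voom and 0.20 with replicate number as a block. The edgeR adjusted p of these 4 genes was 1.0 each.

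Of the 4 members that did not pass the filter, Fos was at least 35.3-fold lower in Pon2-/- mice, when 106 WT reads are set against a limit of 3 reads over the Pon2-/- group. All of it came from WT replicate 5, without which Fos was at 0 in all 11 libraries, and the exact permutation p was 1.0. Nr4a1 averaged 5.79 ± 8.71 CPM in WT and 7.49 ± 16.2 CPM in Pon2-/- mice (SD, n = 6 each, exact permutation p = 0.6). Its direction turned without Pon2-/- replicate 3, which took the Pon2-/- mean to 0.907 ± 2.03 CPM (SD, n = 5). Fosb and Jund were too sparse for a fold.

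Genes around the members were read from related lists. Of 12 other AP-1 and bZIP genes 9 were tested and 0 called, with 2 log2 fold changes above and 7 below 0 and a median of -0.18, against -0.01 over all genes tested. Batf, an AP-1 partner of lymphoid and stem cells, was the highest at 108 ± 37.4 CPM in WT and 107 ± 39.0 CPM in Pon2-/- mice (SD, n = 6 each). Atf2 (65.0 and 57.4 CPM) and Atf7 (46.2 and 42.1 CPM), constitutive partners of Jun, followed, and none of these 3 was near the threshold (edgeR adjusted p = 1.0 each). Batf3 and the stress-induced Atf3 had no read in any library.

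The 39 other immediate early genes included 27 that were tested, of which 0 were called, 14 had log2 fold changes above and 13 below 0, and the median was 0.03. The level of Myc, the growth-promoting transcription factor, was 594 ± 232 CPM in WT and 671 ± 222 CPM in Pon2-/- mice, and that of Nfkbia, the inhibitor of NF-κB, was 380 ± 104 and 311 ± 64.8 CPM. Klf10, a TGF-β-inducible zinc finger factor, was the 1 gene of the list with an unadjusted edgeR p below 0.05. Over all genes tested, 371 of 11848 had such a p. Klf10 lay between 77.7 and 226 CPM in WT (median 130) and between 22.6 and 121 CPM in Pon2-/- mice (median 71.7), so that the groups overlapped. The log2 fold change was -1.04 ± 0.41 (SE; edgeR p = 0.0231, adjusted p = 1.0; exact permutation p = 0.0238). Tob1, an antiproliferative gene, was the other of 2 genes of the list with an exact permutation p below 0.05, a threshold that 5.87% of all genes tested and 0 of the 6 tested members passed. It lay between 0 and 16.1 CPM in WT (median 3.56) and between 12.3 and 73.0 CPM in Pon2-/- mice (median 21.8), with a log2 fold change of 2.62 ± 1.28 (SE; edgeR p = 0.0611, adjusted p = 1.0; exact permutation p = 0.00433). Egr2, Egr4 and Arc, which are inducible like Egr1 and Fos, had no read in the 12 libraries. Id3, a growth factor response gene, was the 1 gene of these lists called by DESeq2, from 473 reads in 2 Pon2-/- libraries.

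Of 16 upstream kinases and factors on the signalling route to the members, 14 were counted in all 12 libraries, Srf (serum response factor) in 11 and Elk1, a ternary complex factor, in 7. Among them 15 were tested and 0 called, with 8 log2 fold changes above and 7 below 0 and a median of 0.06. Map2k2 and Map2k1, which encode the kinases MEK2 and MEK1, averaged 145 ± 61.1 and 137 ± 35.4 CPM in WT and 186 ± 59.1 and 122 ± 58.2 CPM in Pon2-/- mice. Rps6ka1, the ERK-activated kinase RSK1, was at 127 ± 39.9 and 177 ± 43.6 CPM (log2 fold change 0.48 ± 0.25, edgeR p = 0.0791, adjusted p = 1.0; exact permutation p = 0.0866). By the exact permutation test 2 of the 15 tested genes of this list had an unadjusted p below 0.05, against 5.87% of all genes tested. Rps6ka3, the related kinase RSK2, was at 22.3 ± 13.7 CPM in WT and 46.5 ± 14.1 CPM in Pon2-/- mice (log2 fold change 1.06 ± 0.55, edgeR adjusted p = 1.0, exact permutation p = 0.00866). Elk4, another ternary complex factor, was at 57.5 ± 18.8 and 33.0 ± 16.6 CPM (log2 fold change -0.80 ± 0.39, edgeR adjusted p = 1.0, exact permutation p = 0.0346).

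Heat shock genes, the other group that cell stress induces, had 9 of 12 tested and 0 called, with 6 log2 fold changes above and 3 below 0 and a median of 0.04. The constitutive chaperones Hsp90ab1 (2756 ± 318 CPM in WT and 2787 ± 405 CPM in Pon2-/- mice), Hspa8 (1431 ± 359 and 1626 ± 254 CPM) and Hsp90aa1 (545 ± 122 and 513 ± 97.1 CPM) were abundant. The stress-inducible Hspa1a, Hspa1b and Hspb1 had 0 reads in the WT libraries, and 2, 7 and 67 reads in the Pon2-/- group, each from 1 library. The 9 tested genes of the list were counted in all 12 libraries. Among them were Dnajb1 (201 ± 60.3 CPM in WT and 251 ± 55.9 CPM in Pon2-/- mice) and Hsph1 (74.9 ± 52.9 and 76.9 ± 39.5 CPM).

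**Figure D5:**
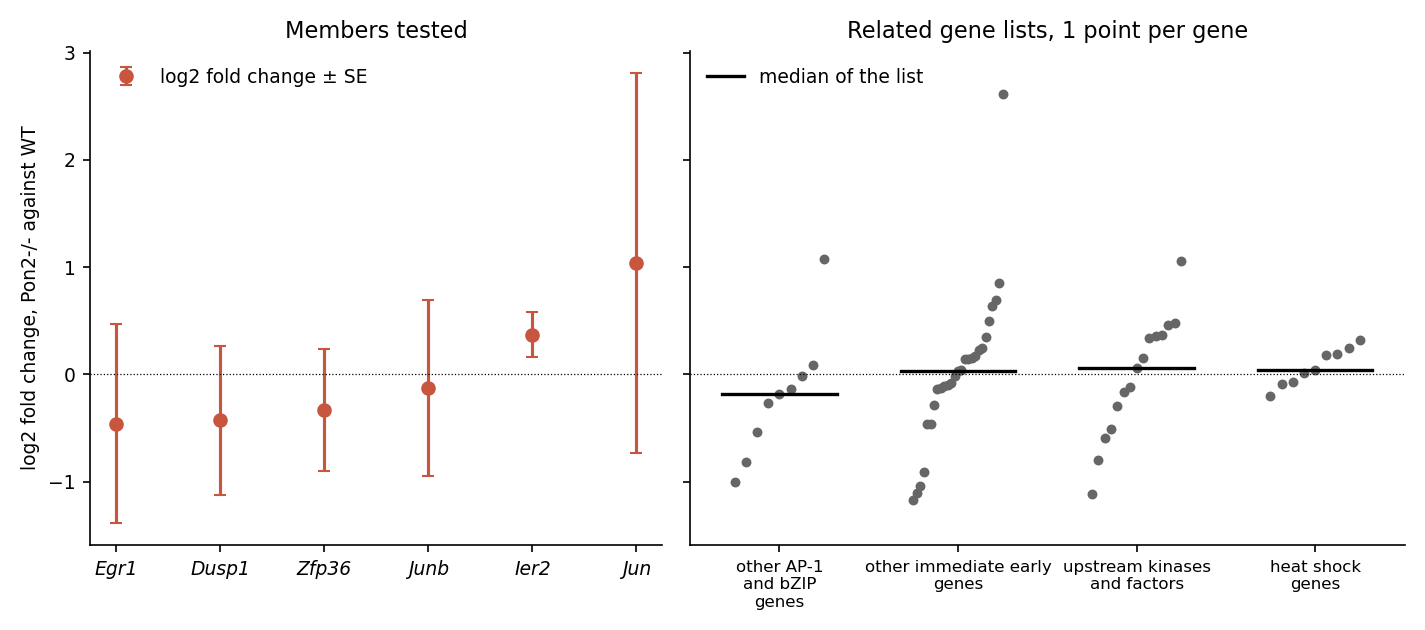
Log2 fold change of Pon2-/- against WT mice for the 6 members tested, with SE bars (left), and for each tested gene of the 4 related lists, 1 point per gene with the list's median as a black line (right). The members lie between -0.46 and 1.04 and the medians of the lists between -0.18 and 0.06.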

How the data were processed

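RNA-seq reads of 12 mice were processed by the authors, who trimmed with Trimmomatic (0.36) after FastQC (0.11.5), aligned with STAR (2.5.3a) to GRCm38 and deposited raw gene counts (quantMode GeneCounts, unstranded column, GENCODE M12). The raw counts were used as deposited, 1 file per mouse. The members and lists were chosen with earlier results of these data known. Gene names, exon lengths and overlaps came from GENCODE M21. Counts were scaled by TMM and tested with edgeR (4.0.16) after filterByExpr, with genotype as the only term. The SE is the absolute log2 fold change over the square root of F. Log2 CPM used a prior count of 2. Single values were compared by a two-sided exact permutation test over 924 relabellings, and correlations by 100000 two-sided permutations. The test of the order of levels was added after the data were seen. Limits for a count of 0 cover counting error only. The SE and the ranges built from it also include the estimated spread between mice, which enters F in edgeR's test. Alternatives were DESeq2 (1.42.0), limma voom (3.58.1), other scalings and filters, robust estimation, a replicate block and leaving out each mouse. Scripts were tested on simulated counts. Named genes were all members, Pon2, in each list the called genes and the 3 with the highest mean CPM, and the 5 and 3 genes most like the tested members and Fos. Markers and genes counted at or near 0, Id3, Tob1, Rps6ka3, Elk1, Elk4, Srf, Dnajb1, Hsph1, Prdx2 and the antisense neighbours were named after their values were seen.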

Additional observations from a re-analysis of the deposited data

Results flagged for a closer look

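In each genotype the highest or lowest of the 6 values of a member was compared with the nearest other value by Dixon's ratio, and 6 of 18 gene and genotype groups held a value set apart, where chance gives about 1 in 20. Fos in WT replicate 5 was at 7.69 CPM with the other 5 WT libraries at 0. Fosb was at 2.46 CPM in WT replicate 6 and at 0.139 CPM in Pon2-/- replicate 5, and Jund at 0.0925 CPM in Pon2-/- replicate 5, each with its group otherwise at 0. For these 4 the ratio is 1.0 by construction, since all other values are 0. Egr1 in Pon2-/- replicate 2 was at 0.0 CPM, with the other 5 between 19.9 and 57.8 CPM. Dusp1 in WT replicate 1 was at 0.594 CPM, with the other 5 between 49.0 and 76.8 CPM. The values with and without these libraries stand beside the results they touch.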

How the results depend on the processing

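The count of members called stayed at 0 in 21 of 22 alternatives, and was 1 (Fos) with DESeq2 without Cook's cutoff, which removes the protection against single extreme libraries. The count over all genes, 24, was 304 with DESeq2, 966 with DESeq2 without Cook's cutoff, 8 with no filter beyond 1 read and 5 with a replicate block, and 20 to 28 when a mouse was left out. Of the related genes 1 was called by DESeq2 and 1 by DESeq2 without Cook's cutoff (Id3 in both). With no filter beyond 1 read, Fos had a log2 fold change from 1 library with an edgeR p of 0.027 and an adjusted p of 0.281. The sign of Junb turned without Pon2-/- replicate 3 (0.12), Pon2-/- replicate 5 (0.12) and WT replicate 2 (0.24), and that of Dusp1 with limma voom (0.28) and the replicate block (0.0066). The fold of Junb ran from -0.66 to 0.24 when a mouse was left out. With limma voom the log2 fold changes of Junb, Egr1 and Jun were -1.21, -1.77 and 0.41, and with the replicate block that of Junb was -0.76, with no call. The correlations and the Nr4a1 mean without Pon2-/- replicate 3 were chosen after seeing the data. The cause of these shifts was not tested. The count of co-varying pairs stayed at 0 in its 19 alternatives, and that of members without overlap at 0 in 14. Same-numbered mice were not treated as pairs in the main test. The correlations of their deviations were 0.0009 to 0.043, and 3 of 12 samples correlated best with their own number. Whether same-numbered mice shared a batch was not tested. A count of 0 does not separate absence from a level below 0.121 to 0.235 CPM.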
